A study of Mus musculus with 6 samples.

Results

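The genes described here are the heat shock proteins, their J-domain partners and the chaperonins, measured in mouse acute myeloid leukemia cells that carried or lacked a working Ppara gene. A gene was a member if its symbol began with Hspa, Hspb, Hspd, Hspe, Hsph, Hsp90 or Dnaj, or was Cct followed by a digit, Tcp1, Hsf1 or Hsf2, and if a row of the deposited table was paired with that symbol alone. In all, 89 of the 30748 genes tested were members, through 92 rows, and 9 of the 89 were pseudogenes. Where a gene had several probe sets, the one that was brightest on average across the 6 arrays stood for it. The rule used names and no difference between genotypes, but the set was proposed with earlier results of these data known.

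The 6 arrays held total RNA from 3 samples of Ppara+/+ and 3 of Ppara-/- leukemia. Both genotypes carried the retroviral MLL-AF9 fusion, an oncogene linked on the same vector to green fluorescent protein (GFP), and both were sorted as GFP-positive cells from the bone marrow of secondary recipients of the leukemia. The Ppara-/- mice that gave the cells were constitutive knockouts, purchased and backcrossed. The labels give no age, no number of primary leukemias and no statement that the replicates came from separate animals. The p-values therefore measure the spread between these samples, which may be technical.

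Values are log2 signals, so a difference of 1 is a doubling, and signals of different genes cannot be compared with each other because probes differ. The number of arrays, 3 a genotype, limits the precision. The 95th percentile of the negative-control probe sets ran from 7.91 to 8.23 over the arrays, and between 11.3% and 14.2% of named genes exceeded it. Of the members, 63 had both genotype means under 7.91, and 26 did not. Negative controls were brightest on Ppara+/+ replicate 1, with a median of 5.16, and on Ppara-/- replicate 2, with a median of 4.99, against 4.63 to 4.81 on the other arrays. Myeloid markers fitted the label, with a mean of 9.78 to 10.20 on each array and 12 of 13 measured markers reaching the control percentile, while 0 of 11 T and NK, 0 of 8 B, 0 of 5 erythroid and 0 of 6 megakaryocyte markers did. Of 14 stroma and endothelium markers, 1 did. Ppara, the disrupted gene, had signals of 4.87, 5.19 and 5.18 in Ppara+/+ and 5.29, 5.05 and 5.23 in Ppara-/-. The groups overlapped, both means were under the control percentile, and where the probes lie relative to the disrupted part is not given in the sources used here, so this row does not check the labels.

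HSP70 proteins bind exposed hydrophobic stretches of unfolded proteins and release them with the use of ATP, and J-domain proteins (the Dnaj genes) bring them clients and speed up the ATPase. HSP90 acts on nearly folded clients such as kinases and nuclear receptors, chaperonins enclose a client in a barrel, and small heat shock proteins hold unfolded proteins without ATP. Heat and other stress raise a subset of these genes through the transcription factor HSF1, whereas Hspa2 is an HSP70 best known from the testis, where it is needed for meiosis in male germ cells.

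The heat shock factors bind repeats of a short inverted unit, so the promoters of Hspa2 and of inducible members are shown for comparison. The stretches are the 250 bases before the annotated start, 5′ to 3′ on the strand of the gene, from RefSeq of mouse assembly GRCm38.p6. Capitals mark matches to GAANNTTC or TTCNNGAA, the pair of motif forms searched, each of which reads the same on both strands and which may overlap each other. Hspa2 (chr12:76404120-76404369, plus strand) is shown as the member that rose, Hspa1a (chr17:34972157-34972406, minus strand) as the classical heat-inducible HSP70, and Hspe1 (chr1:55087898-55088147, plus strand) for its run of matches.
Hspa2: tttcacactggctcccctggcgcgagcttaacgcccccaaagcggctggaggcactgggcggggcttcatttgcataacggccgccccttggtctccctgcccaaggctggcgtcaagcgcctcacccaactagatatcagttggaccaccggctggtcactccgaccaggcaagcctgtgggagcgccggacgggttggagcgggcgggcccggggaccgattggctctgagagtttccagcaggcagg
Hspa1a: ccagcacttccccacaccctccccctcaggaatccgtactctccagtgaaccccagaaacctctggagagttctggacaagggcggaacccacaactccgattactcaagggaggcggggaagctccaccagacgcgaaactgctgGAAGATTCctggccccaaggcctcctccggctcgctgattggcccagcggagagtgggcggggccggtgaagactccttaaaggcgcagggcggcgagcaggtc
Hspe1: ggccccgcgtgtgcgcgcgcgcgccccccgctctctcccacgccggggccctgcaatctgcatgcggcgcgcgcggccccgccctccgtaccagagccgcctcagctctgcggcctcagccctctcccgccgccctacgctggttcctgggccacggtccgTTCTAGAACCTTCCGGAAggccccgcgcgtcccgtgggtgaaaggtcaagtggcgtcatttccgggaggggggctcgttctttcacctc

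In the full window of 300 bases, which adds 50 bases after the start, Hspa2 had 0 matches. Hspa1a had 1, which begins at base 147 of its window, and Hspe1 had 3 overlapping ones, which begin at bases 162, 167 and 172. Hspd1, which is transcribed the other way from the neighbouring start, shares those 3 matches, because the windows of the gene pair overlap. Hsph1 had 3 matches and Hspb1 had 2. Both windows of Dnajb1 had 0, and Hsp90aa1 and Hspa8 had no window to search. Thus 5 of the 6 inducible members with a window (83.3%) held a match, against 17 of 66 members (25.8%) and 4587 of 27025 genes (17.0%). At least 2 matches were found in 4 of the 6 inducible members (66.7%), 6 of the 66 members (9.09%) and 597 of all genes (2.21%). In these counts Hspd1 and Hspe1 stand as 2 genes although their matches are the same bases. The 66 members include the 6 inducible ones. The nuclear receptor half-site AGGTCA, searched on both strands, was absent from the Hspa2 window and present in 15 members (22.7%) and 4900 of all genes (18.1%). These are matches of letters in a short window and say nothing of binding.

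**Figure D1:**
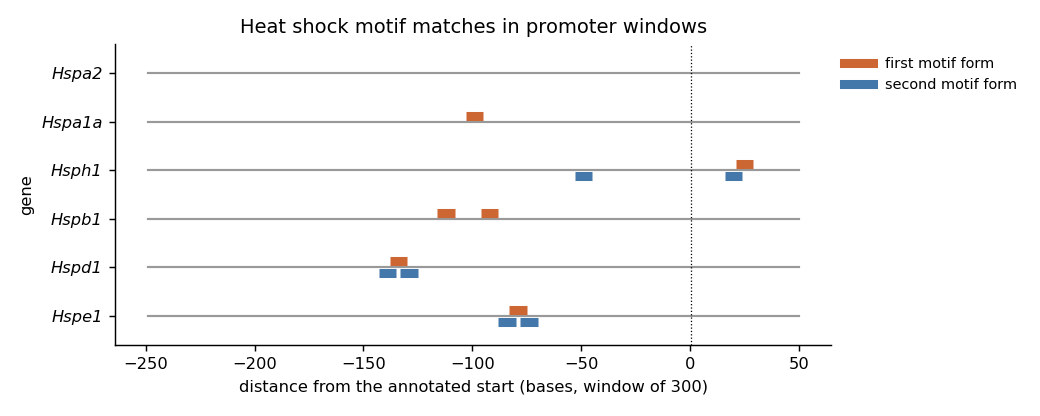
Positions of heat shock motif matches in the RefSeq promoter windows of Hspa2 and 5 inducible members. The x axis is the distance in bases from the annotated start (dotted line), grey lines are the windows of 300 bases, and coloured blocks are matches to each of the motif forms. Hspa2 has 0 matches, and Hspe1 and Hspd1 have 3 each, from overlapping windows.

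Hspa2 rose in Ppara-/- leukemia and was the member that passed the test. Its signals were 6.0, 6.15 and 5.87 in the Ppara+/+ samples and 7.39, 7.12 and 7.36 in the Ppara-/- samples. All 3 Ppara-/- values lay above all 3 Ppara+/+ values, with no overlap. The means were 6.01 ± 0.14 (SD, n = 3) and 7.29 ± 0.15 (SD, n = 3), a log2 difference of 1.28 (SE 0.12, 95% interval 1.01 to 1.56), or 2.43-fold. The adjusted p was 0.0128 by limma over all genes, and the exact two-sided permutation test gave 0.1, the smallest p that 3 arrays against 3 allow. In bulk RNA a change in the number of cells that express a gene and a change in RNA per cell cannot be told apart.

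The probe set was dim on all 6 arrays. Between 66.2% and 77.0% of the negative controls lay below Hspa2 on the Ppara+/+ arrays, and 86.0% to 91.5% did on the Ppara-/- arrays, so the signal moved from the middle towards the upper tail of the controls without reaching the 95th percentile. The call was lost when Ppara+/+ replicate 3 was left out (adjusted p = 0.0542), when Ppara-/- replicate 1 was left out (0.138) and when Ppara-/- replicate 3 was left out (0.0509), while the difference stayed between 1.22 and 1.37. Over the 17 other fits that held the gene it passed in 12, with adjusted p from 0.00107 to 0.138.

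The genes beside Hspa2 on chromosome 12 did not pass. On the side of lower coordinates, the zinc finger genes Zbtb25 (log2 difference 0.30, adjusted p = 0.872) and Zbtb1 (0.28, adjusted p = 0.934) had values above 0, as did 4930426I24Rik (0.16, adjusted p = 0.997). On the other side, Ppp1r36 differed by -0.04 and Gm25563 by 0.19, both with an adjusted p of 0.997. Gm10451 was 4.77, 4.97 and 4.88 in Ppara+/+ and 4.48, 4.31 and 4.31 in Ppara-/-, lower without overlap, with a difference of -0.51 and an adjusted p of 0.21. Hspa2 thus stood out from its measured neighbours in size, a description that was not tested.

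Among all genes, 36 of 30748 passed (0.117%), 18 of them higher in Ppara-/- (0.0585%). Without Ppara+/+ replicate 3 the count was 13, and it was 6, 11 and 15 without Ppara-/- replicate 1, 2 and 3. It was 36 without Ppara+/+ replicate 1 and 36 without Ppara+/+ replicate 2. Among the members, 1 of 89 passed, higher, and 0 passed lower. An unadjusted limma p under 0.05 was reached by 3 members (3.37%), Hspa2, Dnajc25 and Dnajb14, against 5.74% of all genes. The genotypes did not overlap in 6 members (6.74%), against 8.74% of all genes. Hspa2, Dnajc25 and Dnajc12 were higher and Dnajb14, Hspe1 and the pseudogene Hspe1-ps6 lower. In the lists of members below, a count of 0 past the threshold was therefore also 0 at an unadjusted p under 0.05, apart from those that hold Dnajc25 or Dnajb14. The last shares are close to those of all genes and are no result about the members. The median log2 difference was -0.03 over the members, with 36 above 0, 52 below and 1 at 0, and 0.02 over all genes, of which 57.0% were above 0.

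**Figure D2:**
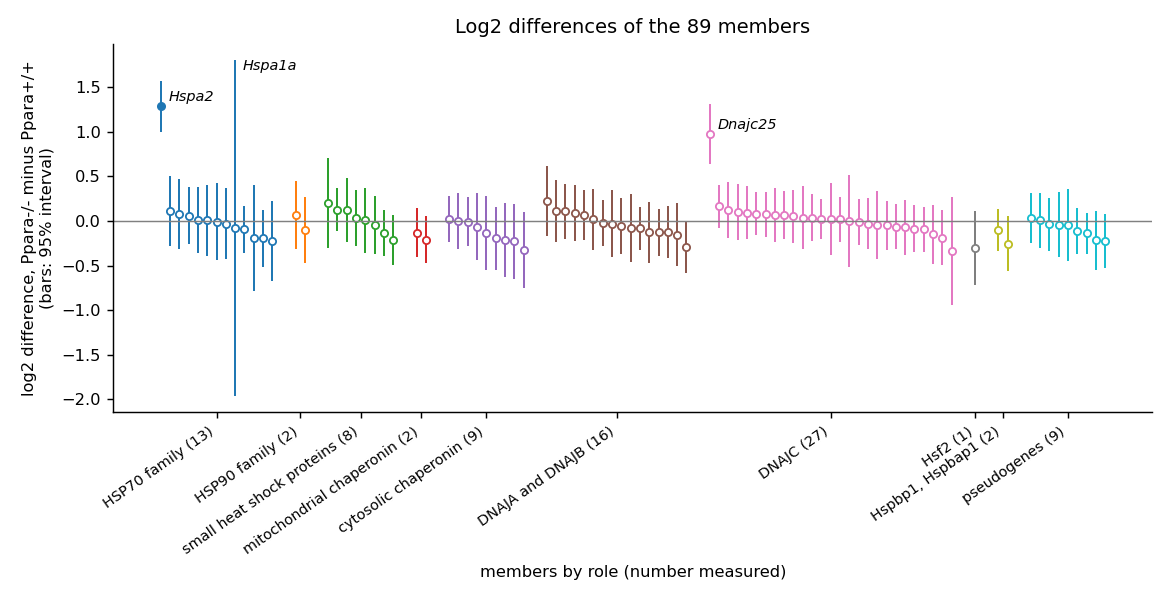
Log2 difference, Ppara-/- minus Ppara+/+, of each of the 89 members, grouped by role and ordered within a role. Points are limma estimates from 3 arrays against 3, bars are 95% intervals, and the filled point passed the adjusted p threshold of 0.05. Hspa2 (1.28) and Dnajc25 (0.97) lie apart from the rest, and Hspa1a has the widest interval.

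None of the 8 measured inducible members passed, and their log2 differences ran from -0.21 to 0.07 with a median of -0.09, 3 above 0 and 5 below. The median turned to 0.065 without Ppara+/+ replicate 3 and to 0.0367 after centring on negative controls. Hspa8, the constitutive cytosolic HSP70 that stress raises further, had signals of 13.23, 13.08 and 13.25 in Ppara+/+ and 13.03, 13.24 and 13.01 in Ppara-/-. Its row had an identifier numbered for another chromosome than that of the gene, as described under other observations. Hsp90aa1, the inducible cytosolic HSP90, was 10.75, 10.35 and 10.40 against 10.34, 10.85 and 10.52. In both genes the genotypes overlapped. Dnajb1, the J-domain partner of inducible HSP70, was 8.67, 8.76 and 8.95 in Ppara+/+ and 8.74, 8.83 and 9.01 in Ppara-/-, a difference of 0.07 (SE 0.12). Hspb1, a small heat shock protein, was 5.77, 6.21 and 6.30 against 6.24, 5.94 and 6.12, a difference of 0.01 (SE 0.16) at a signal under the control percentile. These 4 genes had adjusted p-values of 0.997 by limma.

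The mitochondrial chaperonin is made of the barrel protein Hspd1 and its lid Hspe1, which share the promoter described above. Hspd1 was 8.64, 8.52 and 8.75 in Ppara+/+ and 8.47, 8.67 and 8.38 in Ppara-/-, overlapping, with a difference of -0.13 (SE 0.12, adjusted p = 0.997). Hspe1 was 8.33, 8.46 and 8.65 against 8.31, 8.23 and 8.27. Its Ppara-/- values all lay below the Ppara+/+ ones, by 0.02 at the nearest pair, and the difference of -0.21 (SE 0.11) did not pass, with an adjusted p of 0.989.

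Hspa1a, the classical heat-inducible HSP70, varied far more within each genotype than between them. Its signals were 9.21, 8.94 and 11.89 in Ppara+/+ and 8.50, 10.37 and 10.93 in Ppara-/-. The highest value was Ppara+/+ replicate 3 and the lowest Ppara-/- replicate 1, a range of 3.39, and the genotypes overlapped almost completely. The difference was -0.08 (SE 0.82, 95% interval -1.96 to 1.80, adjusted p = 0.997), so a change of the size seen for Hspa2 in either direction lies inside the interval. Its SD within genotypes, 1.46, ranked 1 among the 30748 genes, where the median was 0.154 over all genes and 0.173 over the members. A second row, paired with Hspa1b and Hspa1a together and so outside the rule, gave 8.44, 8.13 and 11.08 against 7.84, 9.80 and 10.20, the same order of arrays within each genotype. The sequences of Hspa1a and Hspa1b are near-identical, so neither row separates the pair of genes with certainty.

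Hsph1, a nucleotide exchange factor of the HSP110 type, was 7.18, 6.95 and 8.06 in Ppara+/+ and 7.02, 7.32 and 7.28 in Ppara-/-, again highest on Ppara+/+ replicate 3, with a difference of -0.19 (SE 0.26, adjusted p = 0.997). Bag3, an HSP70 co-chaperone induced by stress, was 7.71, 7.41 and 8.41 against 7.43, 7.39 and 7.93. The immediate early genes Nr4a1 (9.29, 9.44 and 10.85 against 9.15, 8.93 and 10.03) and Atf3 (9.06, 8.92 and 9.83 against 8.91, 8.52 and 9.90) were highest within each genotype on replicate 3. These 3 genes were singled out after their values were seen. From Ppara-/- replicate 1 to replicate 2 all 3 fell, while Hspa1a rose. Over 15 measured genes of handling stress the array means were 10.03, 9.89 and 10.39 in Ppara+/+ and 10.06, 10.00 and 10.33 in Ppara-/-, highest on replicate 3 of each genotype, and 0 of 15 passed, with 1 at an unadjusted limma p under 0.05. Within each genotype Jun and Dusp1, of the 15, were highest elsewhere, on Ppara+/+ replicate 1 and Ppara-/- replicate 2. Whether handling of the cells had a part in the Hspa1a values was not tested.

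**Figure D3:**
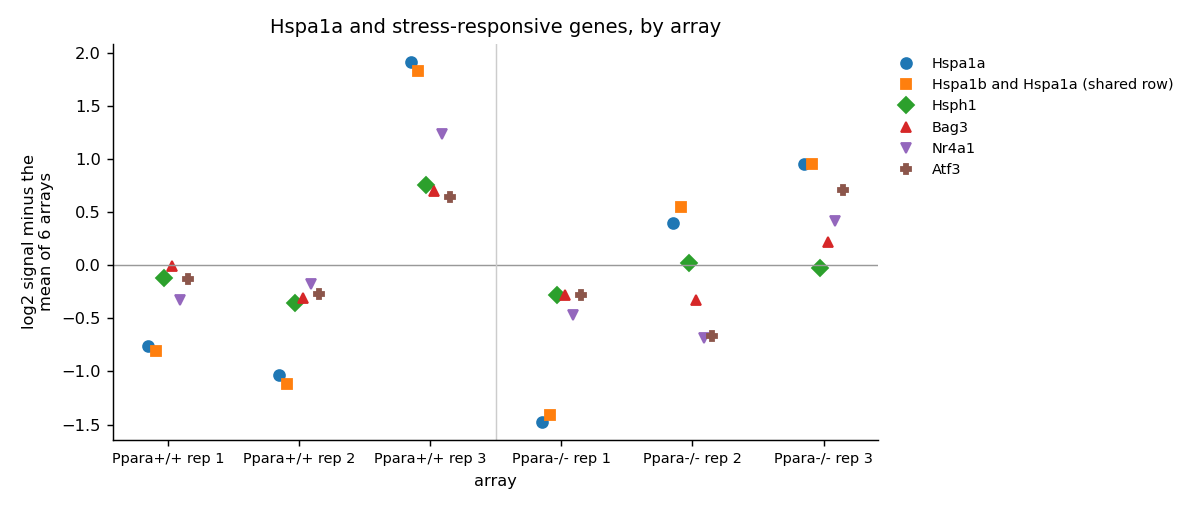
Log2 signal of Hspa1a, the row shared by Hspa1b and Hspa1a, Hsph1, Bag3, Nr4a1 and Atf3 on each array (x axis), minus the gene's mean over the 6 arrays (y axis). Points are single arrays. Hspa1a spans 3.39 log2 units and is highest on Ppara+/+ replicate 3, where the other genes, Atf3 excepted, are highest too.

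Against the mean of the 8 inducible members on the same array, Hspa2 lay at -2.97, -2.76 and -3.66 in Ppara+/+ and at -1.44, -2.06 and -1.83 in Ppara-/-. The genotypes did not overlap. The means were -3.13 ± 0.47 (SD, n = 3) and -1.78 ± 0.31 (SD, n = 3), which differ by 1.35, and the scale of the offset itself has no meaning because probes differ. Without Hspa1a, left out after its spread was seen, the values were -2.94, -2.75 and -3.32 against -1.49, -1.89 and -1.58, again 1.35 apart. Hspa2 and the inducible members are thus described as moving separately in these 6 arrays, with no test, since Hspa2 was known to be among the genes that passed.

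**Figure D4:**
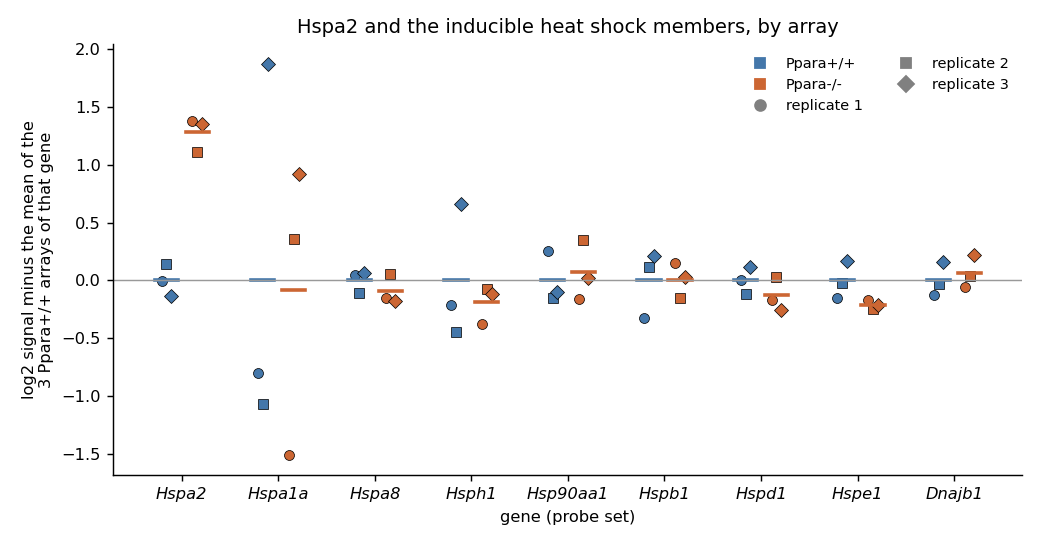
Log2 signal of Hspa2 and the 8 measured inducible members on each array, minus the mean of the gene's Ppara+/+ arrays (y axis). Points are arrays, with the shape giving the replicate number, and horizontal bars are genotype means of 3. The Hspa2 means lie 1.28 apart, and those of the inducible members lie between 0.21 lower and 0.07 higher in Ppara-/-.

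Of the 13 measured HSP70 family members, 1 passed, Hspa2, with 6 differences above 0 and 7 below and a median of -0.01. Hspa4, an HSP110-type exchange factor, was 9.41, 9.08 and 9.02 in Ppara+/+ and 8.95, 9.14 and 8.83 in Ppara-/- (difference -0.20, adjusted p = 0.997). The mitochondrial HSP70 Hspa9 was 8.71, 8.07 and 8.10 against 8.10, 8.28 and 7.82 (-0.23, adjusted p = 0.997). Hspa5, the endoplasmic reticulum HSP70 known as BiP, was 10.94, 10.50 and 10.67 against 10.49, 11.01 and 10.52 (-0.03, adjusted p = 0.997). In all 3 genes the highest value came from Ppara+/+ replicate 1 or Ppara-/- replicate 2, the arrays with the brightest negative controls. The other members, Hspa4l, Hspa12a, Hspa12b, Hspa13, Hspa14 and Hspa1l, had differences between -0.01 and 0.11.

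Among the J-domain genes, Dnajc25 came closest to the threshold. This gene encodes a membrane-anchored J-domain protein. Its signals were 6.51, 6.09 and 6.29 in Ppara+/+ and 7.09, 7.47 and 7.25 in Ppara-/-, higher without overlap. The difference was 0.97 (SE 0.14, 95% interval 0.64 to 1.30), or 1.96-fold, with an adjusted p of 0.0708, and it passed in 3 of 17 other fits. Like Hspa2 it was dim, with 75.1% to 76.0% of negative controls below it on the Ppara+/+ arrays and 89.0% to 90.4% on the Ppara-/- arrays. The other 26 DNAJC genes ran from -0.34 to 0.16, and the 27 had a median of 0.02, with 15 above 0, 12 below and 0 past the threshold.

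Dnajc12, a co-chaperone of aromatic amino acid hydroxylases, was 5.82, 5.91 and 5.91 against 6.14, 5.95 and 6.04, higher without overlap by 0.16 (SE 0.10, adjusted p = 0.997). Dnajc9, a histone chaperone, was 8.42, 8.09 and 8.18 against 8.01, 8.22 and 7.90, a difference of -0.19 with overlap. Dnajc10, a disulfide reductase of the endoplasmic reticulum, was 8.74, 7.61 and 7.81 against 7.87, 7.67 and 7.61, where Ppara+/+ replicate 1 alone was high and the SE was 0.26. Dnajc3, an inhibitor of eIF2 alpha kinases, differed by -0.15, and the endosomal Dnajc13 by 0.00, with values of 9.26, 8.64 and 8.73 against 8.78, 9.30 and 8.54.

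Of the 16 DNAJA and DNAJB genes, 0 passed, 6 were above 0 and 10 below, and the median was -0.04. Dnajb14, a J-domain protein of the endoplasmic reticulum membrane, was 6.60, 6.46 and 6.64 in Ppara+/+ and 6.28, 6.08 and 6.45 in Ppara-/-, lower without overlap, with 0.01 between the nearest values. Its difference was -0.30 (SE 0.12), with an unadjusted limma p of 0.0396 and an adjusted p of 0.834. Dnajb2, a neuronal co-chaperone that sorts clients to the proteasome, differed by 0.22 (5.87, 6.34 and 6.33 against 6.47, 6.14 and 6.59). Dnajb4 and Dnajb6, the latter a suppressor of aggregation, both differed by -0.13, and Dnajb9, a BiP partner, by -0.08. The 4 had adjusted p-values of 0.997.

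Both measured HSP90 genes overlapped between genotypes. Hsp90b1, the HSP90 of the endoplasmic reticulum, was 10.57, 10.23 and 10.25 in Ppara+/+ and 10.23, 10.52 and 10.00 in Ppara-/- (-0.10, SE 0.16, adjusted p = 0.997), beside the 0.07 of Hsp90aa1. Hsp90ab1 was not analysed here.

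All 8 genes listed as small heat shock proteins were dim, with both means under the control percentile. The list went by symbol, Hspb followed by a number, and whether each gene, such as Hspb11, belongs to the family was not checked. Of these, 0 passed, 5 were above 0 and 3 below, and the median was 0.02. Hspb6, which is best known from muscle, was 7.47, 7.13 and 7.32 against 7.08, 7.19 and 7.02, a difference of -0.21 (SE 0.12). Hspb11 differed by 0.13, Hspb8, a partner of Bag3 in autophagy, by -0.13, and Hspb9 by 0.20, each with an adjusted p of 0.997.

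The cytosolic chaperonin TRiC folds actin and tubulin in a ring of related subunits. Of 9 measured genes of this group, 0 passed, 1 difference was above 0, 7 were below and 1 was 0, with a median of -0.14. The 7 ring subunits with a row of their own, Tcp1, Cct2, Cct3, Cct4, Cct5, Cct7 and Cct8, had a median of -0.20 and a range from -0.33 to 0.00. Tcp1 was 8.35, 7.77 and 7.74 in Ppara+/+ and 7.58, 7.86 and 7.44 in Ppara-/-, with overlap (-0.33, SE 0.18, adjusted p = 0.997). Cct2 was 10.89, 10.39 and 10.45 against 10.25, 10.67 and 10.12 (-0.23, SE 0.18), and Cct4 was 7.66, 7.04 and 7.14 against 7.01, 7.28 and 6.90 (-0.22, SE 0.18). Cct3 differed by -0.20 (SE 0.15) and Cct5 by -0.01 (SE 0.12).

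The subunits varied together by array more than by genotype. Their mean was 8.68 on Ppara+/+ replicate 1, 8.26 and 8.29 on the other Ppara+/+ arrays, 8.47 on Ppara-/- replicate 2, and 8.23 and 8.06 on the other Ppara-/- arrays. In 6 of 7 subunits the highest of the Ppara+/+ values was on replicate 1, and in 7 of 7 the highest of the Ppara-/- values was on replicate 2, the arrays with the brightest negative controls. With the negative-control median as a covariate the median of the 7 was -0.07, with 5 below 0 and 2 above. With both arrays left out it was -0.14, with 6 below and 1 above, and 0 subunits passed in either fit. Over all members, 32 of 89 were highest on Ppara+/+ replicate 1, against 7 to 17 on each of the other arrays. Ties were given to the array listed first, which was Ppara+/+ replicate 1. The same count over all genes was not made, so this is no result about the members. The median of named genes was 5.16 on that array and 5.25 to 5.40 on the others. The part of array quality in these values was not tested further.

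**Figure D5:**
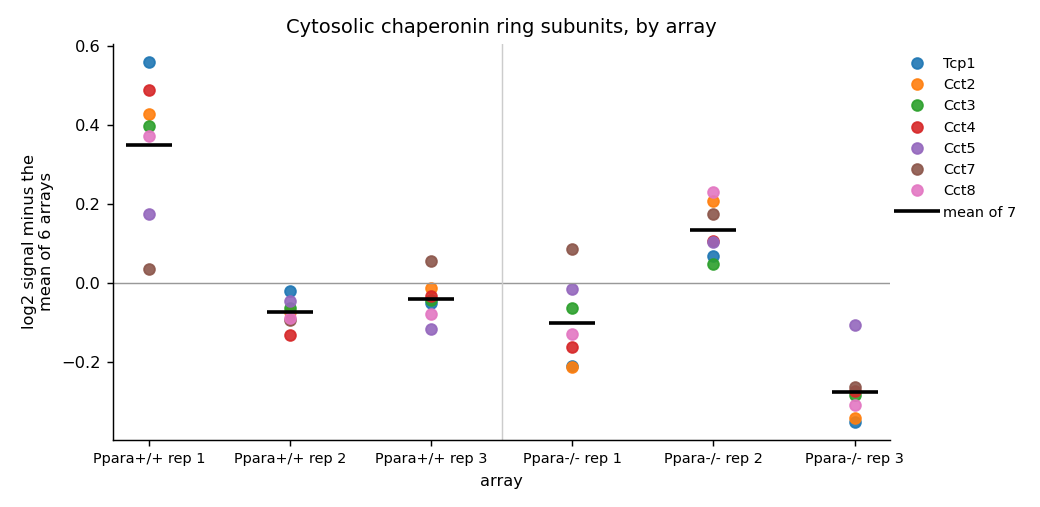
Log2 signal of the 7 measured ring subunits of the cytosolic chaperonin on each array (x axis), minus the subunit's mean over the 6 arrays (y axis). Points are subunits and black bars are means of the 7. Values are highest on Ppara+/+ replicate 1 and, within Ppara-/-, on replicate 2.

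Hsf2, a heat shock factor active in development and the testis, was 6.09, 5.42 and 5.53 in Ppara+/+ and 5.26, 5.36 and 5.52 in Ppara-/-, with overlap. Its difference was -0.30 (SE 0.18, adjusted p = 0.997), and Ppara+/+ replicate 1 was the high value. Hsf1 was not analysed here. Hspbp1, an HSP70 nucleotide exchange factor that carries the prefix but is no heat shock protein, was 7.75, 7.94 and 8.09 against 7.85, 7.62 and 7.55, a difference of -0.25 (adjusted p = 0.966). Hspbap1 differed by -0.10.

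By compartment, 8 members of the endoplasmic reticulum had a median of -0.09, 2 above 0 and 6 below, and 7 mitochondrial members had a median of -0.06, 2 above and 5 below, with 0 past the threshold in either list. The first list did not hold Dnajb14, which is described above. Dnajb11, a BiP co-chaperone, differed by -0.13, and Dnaja3, a mitochondrial J-domain protein, by -0.06. The 9 pseudogenes, all dim, had a median of -0.04, 2 above 0 and 7 below, and 0 passed.

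All 10 members that are enriched in testis were dim, and 1 of them passed, Hspa2. Apart from Hspa2 the differences were small, 0.01 for Hspa1l, 0.11 for Hspa4l, 0.20 for Hspb9, 0.09 for Dnajb3, 0.11 for Dnajb8, 0.02 for Dnajb13, 0.07 for Dnajc5b, 0.08 for Dnajc5g and 0.02 for Cct6b. All had an adjusted p of 0.997. All 10 differences were above 0, where 57.0% of all genes were, but in other fits that held all of them 5 to 10 were. Without Ppara+/+ replicate 1 it was 5 of 10, when 46.3% of all genes were above 0. Of 30 germ cell genes outside the rule, 24 were above 0 (80.0%, against 57.0% of all genes) and 5 below. Their median was 0.05, and 29 were dim. Of the 30, 2 passed, both lower, against 36 of 30748 genes (0.117%). An unadjusted limma p under 0.05 was reached by 3 (10.0%), against 5.74% of all genes. Without overlap, 2 were higher and 2 lower (13.3%, against 8.74% of all genes). Tex15 was 4.36, 4.58 and 4.51 in Ppara+/+ and 4.99, 5.13 and 4.79 in Ppara-/-, higher without overlap (0.49, adjusted p = 0.324 by limma). Stag3, a meiotic cohesin subunit, was 7.21, 7.32 and 6.74 in Ppara+/+ and 5.48, 5.72 and 5.16 in Ppara-/- (-1.64, SE 0.19, adjusted p = 0.0229 by limma), and Tex14, which is needed for germ cell bridges, was 5.63, 5.99 and 6.07 against 4.83, 4.59 and 4.64 (-1.21, SE 0.14, adjusted p = 0.0229). Both lay lower in Ppara-/- without overlap, the opposite direction to Hspa2. Stag3 passed in 9 of 17 other fits and lost its call without Ppara+/+ replicate 1 (adjusted p = 0.0748) and without Ppara-/- replicate 1, 2 or 3 (0.146, 0.0506 and 0.0563), with a range of 0.00574 to 0.193 over all of them. Tex14 passed in 8 of 16 and lost its call without Ppara+/+ replicate 2 or 3 (adjusted p = 0.0578 and 0.11) and without Ppara-/- replicate 1, 2 or 3 (0.139, 0.0836 and 0.0799), with a range of 0.00144 to 0.297.

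Among co-chaperones and folding factors that the rule did not take in, 55 of 57 listed genes were measured, 0 passed, 1 had an unadjusted limma p under 0.05, 26 were above 0 and 29 below, and the median was -0.01. The smallest unadjusted p belonged to Hsbp1, a binder of heat shock factors, with 9.45, 9.32 and 9.18 in Ppara+/+ and 9.06, 9.01 and 8.94 in Ppara-/-, lower without overlap (-0.31, adjusted p = 0.667). Tbcc, a tubulin folding cofactor, differed by 0.30 (adjusted p = 0.901), Cacybp, an HSP90-associated protein, by -0.37 (adjusted p = 0.954), and Sil1, an exchange factor of BiP, by 0.20 (adjusted p = 0.997). Of 22 measured PPARA target genes, 18 were dim, 12 were above 0 and 10 below, and the median was 0.02. By limma 0 passed and 1 (4.55%) had an unadjusted p under 0.05, against 5.74% of all genes. That gene, Angptl4, was dim and higher in Ppara-/- without overlap (0.35, adjusted p = 0.495). At such signals a count of 0 does not show that the targets were unchanged.

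Markers of monocytes and macrophages had the largest share without overlap among the 7 marker lists (36.4%), against 8.74% of all genes. Of 11 measured, 8 were below 0 and 3 above, and the median was -0.13. The genotypes did not overlap in 4, all lower in Ppara-/-. By limma 0 passed, and 4 (36.4%) had an unadjusted p under 0.05, against 5.74% of all genes. The mean of the 11 ran from 7.25 to 7.42 on the Ppara+/+ arrays and from 6.96 to 7.10 on the Ppara-/- arrays. Cd68 was 9.75, 9.55 and 9.81 in Ppara+/+ and 9.04, 8.76 and 9.13 in Ppara-/- (-0.73, adjusted p = 0.138). Also lower without overlap were Csf1r (-0.94, adjusted p = 0.364 by limma), Adgre1 (-0.66, adjusted p = 0.316) and Cx3cr1 (-0.36, adjusted p = 0.784). Ccr2 went the other way, at 7.12, 6.53 and 6.65 against 7.29, 7.08 and 7.03, with overlap (0.37, adjusted p = 0.882 by limma). Of the 13 myeloid markers, 0 passed and 2 had an unadjusted limma p under 0.05. Kit, a receptor of progenitors, was 8.12, 7.62 and 7.60 in Ppara+/+ and 8.22, 8.55 and 8.19 in Ppara-/- (0.54, adjusted p = 0.547). Csf3r, the G-CSF receptor, was 9.62, 9.78 and 9.86 against 10.10, 10.07 and 10.20 (0.37, adjusted p = 0.473). Both were higher in Ppara-/- without overlap, and Lyz2, the lysozyme of myeloid cells, was lower without overlap (-0.21, adjusted p = 0.979). The stroma marker Pdgfrb was 6.95, 6.53 and 6.73 in Ppara+/+ and 5.79, 5.44 and 5.90 in Ppara-/- (-1.03, adjusted p = 0.0719 by limma). It passed in 2 of 17 other fits. The B cell marker Cd79b differed by -0.40 (adjusted p = 0.618 by limma). Both were dim and lower without overlap. Of the 14 stroma and endothelium markers, 9 were above 0 and 5 below. Among the 8 B cell markers, 5 were above 0 and 3 below. The part of cell composition in the Hspa2 and Dnajc25 values was not tested.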

How the data were processed

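RNA from 6 samples was measured on Affymetrix arrays. The table as deposited holds 1 log2 signal per array for every probe set. RMA (background correction, quantile normalization, probe summary) and limma are listed, without versions, per the submitters' processing notes. A genome build is not given in the sources used here, there are no detection calls, and the identifiers differ in form from the array model named by the submitters. RMA would remove a shift common to most genes. Of 72688 rows, 6732 were controls, 5222 of them negative controls. A platform table paired 31221 rows with 1 gene and 1529 with several, leaving 33206 unnamed here. Symbols were updated through gene identifiers with RefSeq GRCm38.p6. Genotypes and replicate numbers came from the sample titles.

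The 30748 genes were fitted in R 4.3.3 by limma 3.58.1 (eBayes after lmFit, a two-sided test of genotype alone), and p-values were adjusted by Benjamini and Hochberg's method across all of them, with 0.05 as the threshold. A gene is called dim where both genotype means were under 7.91, the lowest that the controls' 95th percentile took on any array. The fit was tested on simulated data. Genes named were those past the threshold, all inducible and testis-enriched members, in each role the up to 4 smallest p-values and the 2 brightest, Hsf2, the 4 smallest p-values of the folding factors outside the rule, and the 3 nearest measured genes on each side of Hspa2. Some stress, germ cell, PPARA target and marker genes were named outside this rule, after their values were seen. The members and lists were chosen with earlier results of these data known. Alternatives covered the prior, normalization, dim-gene filters, probe set choice, array weights, the replicate block, negative-control signal and each array left out.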

Additional observations from a re-analysis of the deposited data

How the results depend on the processing

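Of the 89 members, 1 passed in the reported fit, and 2 passed with a trended and robust prior, with array weights, with the negative-control signal as a covariate and at an adjusted p under 0.1, the second being Dnajc25. With both bright-control arrays left out 0 passed, as with a filter at the controls' 95th percentile, which does not hold Hspa2. Leaving out each array gave 0 to 1. Genes called numbered 36, then 69 with the prior, 277 with weights, 21 after quantile normalization again, 12 after centring on named genes, 22 after centring on controls, 1 with the filter, 12 with the block, 23 over all rows, 0 without the bright-control arrays and 6 to 36 with each array left out. Between samples of the same replicate number, deviations from the genotype means were correlated at -0.33, -0.47 and 0.11. These 3 values cannot show whether such samples shared a litter, day or batch, which the labels do not state. With the replicate block 0 members passed, and Hspa2 had a difference of 1.28 with an adjusted p of 0.0727. Hspa2 was 1.36 without the bright-control arrays (adjusted p = 0.0918) and 1.22 to 1.37 with each array left out. The median of the members was 0.0933 after centring on controls, which moves the median of all genes to 0.14, -0.0933 with the filter, and -0.0717 to -0.0033 with each array left out. Over all alternatives the medians of both chaperonin lists stayed below 0. That of the testis-enriched list stayed above 0 in every alternative that held any of its genes. The filter at the controls' 95th percentile held none, and a filter at the median gene held 3 of the 10. The medians of the HSP70, HSP90, small heat shock protein, J-domain, endoplasmic reticulum, mitochondrial, inducible and outside-rule lists took both signs. The cause of these shifts was not tested. Dim signals and 3 arrays a genotype limit what can be called.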

Other observations

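Several rows outside the rule carried chaperone sequence shared with other genes. The row read as Hspa8 had an identifier numbered for chromosome 6, whereas RefSeq places the gene on chromosome 9. The other rows paired with Hspa8 alone were numbered for chromosomes 1, 1 and 14, with differences of -0.06, -0.08 and -0.09. Whether these rows read the gene itself was not tested. The row numbered for chromosome 9, shared with small nucleolar RNAs, was 11.32, 11.09 and 10.90 in Ppara+/+ and 10.88, 11.13 and 10.99 in Ppara-/-, a difference of -0.10 beside the -0.09 of the row used. The rows that pair Dnaja1 with Mir207, Cct6a with Snora15 and Dnajc19 with its pseudogene had differences of -0.05, -0.17 and -0.26, each with an adjusted p of 0.997 by limma over all rows. The rows that pair Hsp90aa1 with Gm5844 and with Gm12346 had differences of 0.22 and 0.09, with the same adjusted p.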
